A study of Homo sapiens with 12 samples.

Results

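The p53 target genes described here are 10 genes that the transcription factor p53 activates: CDKN1A, MDM2, TP53INP1, AEN, DDB2, ZMAT3, TP53I3, SESN1, BBC3 and FAS. They were chosen by name, with earlier results of these data known, so their counts beside all genes are a description. Each has 1 probe set among the 19117 genes with a symbol on the array, and AEN, which the array's annotation lists as ISG20L1, was matched by its Entrez gene number. Their transcript levels were read from 12 arrays hybridised with RNA of MDA-MB-231 cells, a long-established line from a human breast tumour, in 4 groups of 3 samples. The FECH siRNA group received 0.1 mM 5-aminolevulinic acid (5-ALA), a building block of heme, and 15 nM of an siRNA, a single sequence, against ferrochelatase (FECH), the enzyme that puts iron into protoporphyrin IX. The control siRNA group received 0.1 mM 5-ALA and 15 nM of the Allstar control siRNA. The 5-ALA only group received 0.1 mM 5-ALA and no siRNA, and the last group received no treatment. The labels do not say whether the 3 samples of a group came from separate cultures, so p-values reflect only the spread of these arrays, which may be technical.

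p53 is stabilised when DNA is damaged or when a cell is under other stress, and it then switches on genes that halt division, repair DNA, adjust metabolism or start cell death. MDM2, itself one of these genes, encodes the ubiquitin ligase that degrades p53 and closes a feedback loop. MDA-MB-231 carries a missense mutant p53 that has lost much of the normal protein's ability to bind its DNA sites, and several of these genes are also known to respond to other transcription factors.

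To show the sequence that p53 recognises in these genes, the RefSeq promoter windows (GRCh38.p14, 250 bases before to 50 bases after a transcription start) were searched for exact matches to the p53 half-site consensus. The consensus reads the same on both strands, so 1 search covers both. A full site is a pair of half-sites with 0 to 13 bases between them. Of the 10 genes, 9 had windows, 18 in all, and TP53INP1 had none. Exact half-sites lay in 4 of these windows, 1 each of AEN, DDB2, SESN1 and FAS, while 6.63% of all 35116 windows hold one. The DDB2 window was the only one of the 18 with a full site, which 0.0285% of all windows hold. The 4 stretches of 30 bases are shown 5′ to 3′ with the half-sites in capitals. They lie at chr11:47214975-47215004 (DDB2, plus strand), chr15:88621296-88621325 (AEN, plus strand), chr6:109009018-109009047 (SESN1, minus strand) and chr10:88991299-88991328 (FAS, plus strand).
DDB2: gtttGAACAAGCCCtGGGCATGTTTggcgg
AEN: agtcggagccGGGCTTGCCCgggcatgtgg
SESN1: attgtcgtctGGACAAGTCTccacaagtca
FAS: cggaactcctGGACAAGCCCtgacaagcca
The full site of DDB2 spans bases 6 to 26 after a transcription start and has 1 base between its half-sites, and the half-site of AEN lies 34 to 25 bases before a start. A match describes letters in these windows and does not show binding, and p53 sites outside the windows, as are known in introns of several of these genes, were not searched.

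All values below are log2 of the RMA signal, the array's summarised brightness for a transcript, and differences are differences of log2 signals, tested with limma over 12151 genes and adjusted by the Benjamini-Hochberg method. Genes were tested when their signal exceeded 7.29, the median of all probe sets, on at least 3 arrays. Array medians spanned 7.25 to 7.34 on the log2 scale. FECH was at 6.53 ± 0.09 with FECH siRNA and at 8.55 ± 0.05 with control siRNA (SD, n = 3 each), 4.06-fold lower (limma adjusted p = 1.7e-09). The 6 markers of this mesenchymal-like line (VIM, CD44, AXL, CAV1, MSN and EGFR) were at 10.85 to 13.40 on all arrays, and the hormone receptor genes ESR1 and PGR, which the line lacks, were at 5.62 to 6.54. ERBB2, GATA3 and EPCAM, also taken as low in this line, were above the filter on the arrays, at 7.58 to 9.44. Of 4 blood markers, PTPRC and CD3E were dim, at 4.93 to 5.97, while CD14 was at 9.70 to 10.66. The summed blood marker level was 10.08 to 10.10 with FECH siRNA and 10.56 to 10.86 in the other groups. Of 3 endothelial markers, VWF (6.04 to 6.23) was dim throughout, and their sum was 8.51 to 8.58 with FECH siRNA (0 of 3 above the filter) and 8.82 to 9.17 in the other groups (1 of 3). The 3 fibroblast markers summed to 10.36 to 10.42 with control siRNA (3 of 3 above the filter) and to 10.04 to 10.21 in the other groups (2 of 3). These sums move with the siRNA groups, and their part in the results was not tested. Untreated replicate 3 stood apart from its group, where 416 genes deviated by over 0.5 log2 units from the average of its 2 group mates, against 10 to 115 genes on the other arrays. With 1 cell line and whole RNA, a change in the number of cells in a state and a change in the RNA per cell cannot be told apart. The arrays do not measure p53 protein or its activity.

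**Figure D1:**
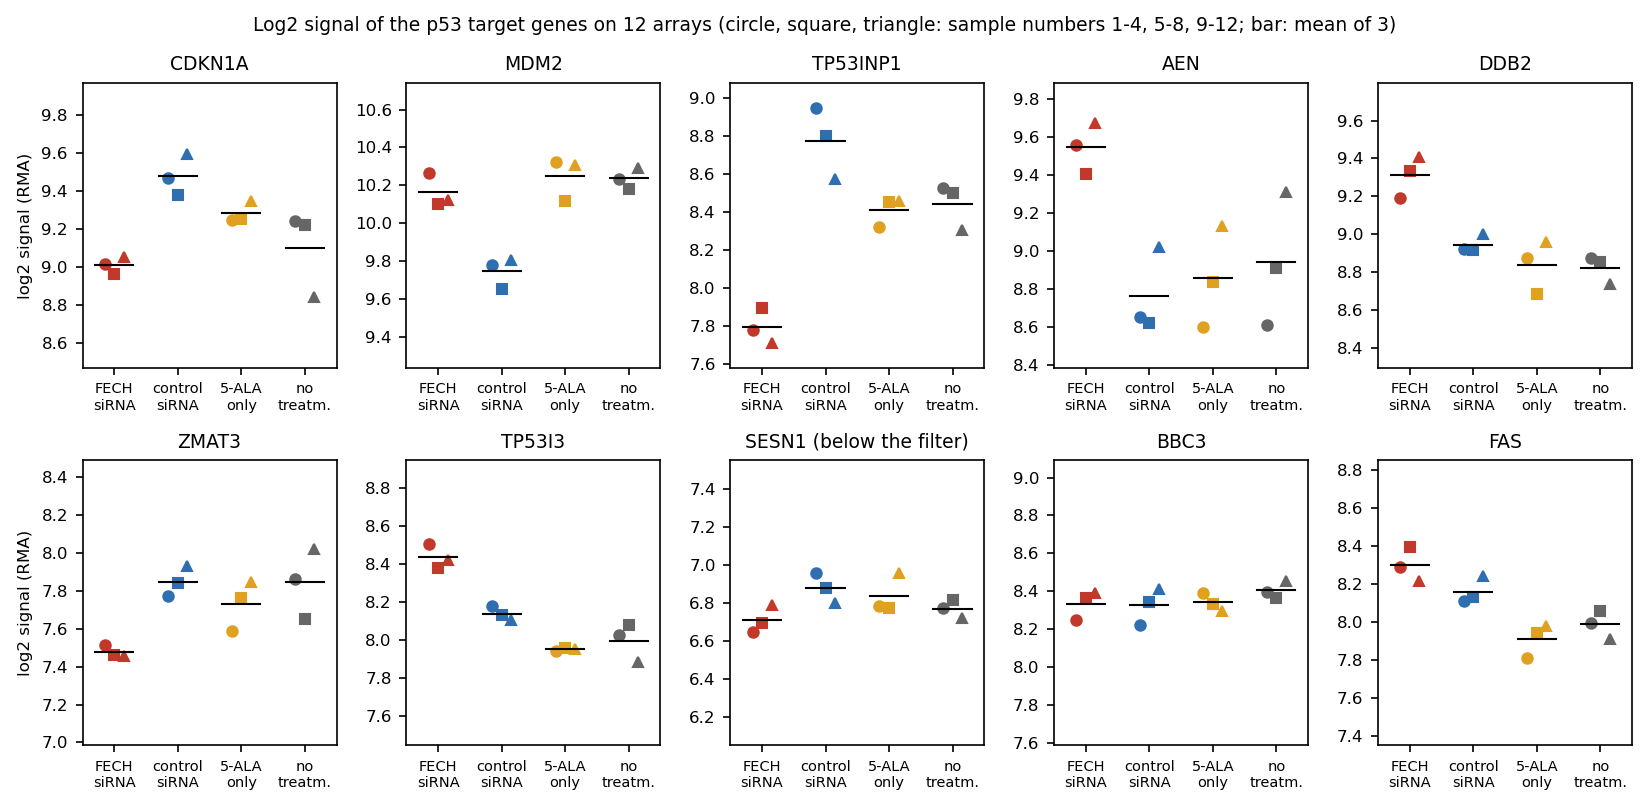
Log2 RMA signal (vertical axes, each spanning the same range) of the 10 p53 target genes in the 4 groups (horizontal axes); each point is 1 array, its shape gives the run of sample numbers, and the bar is the mean of 3. AEN, DDB2 and TP53I3 stood highest with FECH siRNA, TP53INP1 and ZMAT3 lowest with FECH siRNA, MDM2 was lowest with control siRNA, and SESN1 stayed under 7.29 on every array.

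FECH siRNA was first set against control siRNA, which holds 5-ALA and the siRNA dose equal. The siRNA sequence differs between these groups, and FECH was silenced with a single sequence. Whether a difference came from the loss of FECH or from other effects of either siRNA was not tested. The p53 targets did not move in 1 direction. AEN, MDM2, DDB2 and TP53I3 rose, TP53INP1, CDKN1A and ZMAT3 fell, and BBC3 and FAS did not pass the test. That is 7 of 9 tested members past limma's threshold, an adjusted p under 0.05, where 38.3% of all tested genes passed (20.4% rose and 17.8% fell). The median difference of the 9 was 0.14, and that of all 12151 genes was 0.00. All 9 were above the filter on all 12 arrays, and SESN1 was above it on none.

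CDKN1A encodes p21, the inhibitor of cyclin-dependent kinases through which p53 halts the cell cycle. The log2 signal of CDKN1A was 9.02, 8.97 and 9.05 with FECH siRNA, 9.47, 9.38 and 9.60 with control siRNA, 9.25, 9.25 and 9.35 with 5-ALA only, and 9.25, 9.22 and 8.84 without treatment. All FECH siRNA arrays lay below all control siRNA arrays, and the lowest of all 12 values was that of untreated replicate 3. The fall against control siRNA was 1.39-fold (log2 difference -0.47, SE 0.10, limma adjusted p = 0.0016). Of all tested genes, 51.2% had groups that did not overlap in this comparison. In order of the means, control siRNA (9.48) stood highest, then 5-ALA only (9.28), no treatment (9.10) and FECH siRNA (9.01), and none of the 3 neighbouring steps in this order passed the test.

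MDM2, the ubiquitin ligase that degrades p53, had log2 signals of 10.27, 10.10 and 10.12 with FECH siRNA, 9.78, 9.65 and 9.81 with control siRNA, 10.32, 10.12 and 10.31 with 5-ALA only, and 10.23, 10.18 and 10.29 without treatment. The control siRNA arrays lay apart, below all 9 others, which overlapped among themselves. With FECH siRNA MDM2 was 1.33-fold higher than with control siRNA (log2 difference 0.41, SE 0.07, limma adjusted p = 5.9e-04). Against 5-ALA only it did not differ past the test, with a log2 difference of -0.09 and a 95% interval of -0.25 to 0.07.

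TP53INP1, a nuclear protein induced by stress that acts in apoptosis and autophagy, had the largest difference of the 9 tested members between FECH siRNA and control siRNA. TP53INP1 had log2 signals of 7.78, 7.89 and 7.71 with FECH siRNA, 8.95, 8.80 and 8.57 with control siRNA, 8.32, 8.45 and 8.46 with 5-ALA only, and 8.52, 8.50 and 8.30 without treatment. Every FECH siRNA array was below every array of the other groups. It was 1.97-fold lower with FECH siRNA than with control siRNA (log2 difference -0.98, SE 0.09, limma adjusted p = 2.9e-06), 1.53-fold lower than with 5-ALA only (adjusted p = 1.8e-04) and 1.57-fold lower than without treatment (adjusted p = 1.1e-04).

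Among the members that act in cell death, AEN, a nuclease that takes part in DNA breakdown during apoptosis, rose. Its log2 signal was 9.56, 9.41 and 9.67 with FECH siRNA, 8.65, 8.62 and 9.02 with control siRNA, 8.60, 8.84 and 9.13 with 5-ALA only, and 8.61, 8.91 and 9.31 without treatment. The lowest FECH siRNA value was above the highest of the other 9 arrays, and samples of the last run of numbers (9 to 12) were the highest of every group. AEN was 1.72-fold higher than with control siRNA (log2 difference 0.78, SE 0.17, limma adjusted p = 0.0024). Within the runs the difference was 0.91, 0.79 and 0.65, and with the runs as a block the adjusted p was 3.4e-05.

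TP53I3 encodes a quinone oxidoreductase that p53 induces in cells on the way to apoptosis. Its log2 signal was 8.51, 8.38 and 8.42 with FECH siRNA, 8.18, 8.13 and 8.11 with control siRNA, 7.94, 7.96 and 7.95 with 5-ALA only, and 8.03, 8.07 and 7.88 without treatment. The groups formed steps, with FECH siRNA above control siRNA and control siRNA above both groups without siRNA, and no overlap at either step. The rise over control siRNA was 1.23-fold (log2 difference 0.30, SE 0.06, limma adjusted p = 0.0019).

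FAS, the death receptor on the cell surface, had log2 signals of 8.29, 8.40 and 8.21 with FECH siRNA, 8.11, 8.13 and 8.24 with control siRNA, 7.81, 7.94 and 7.98 with 5-ALA only, and 7.99, 8.06 and 7.91 without treatment. Both siRNA groups lay above both groups without siRNA, and overlapped with each other. FECH siRNA and control siRNA differed by 0.14, with a 95% interval of -0.01 to 0.29 (limma adjusted p = 0.14). This difference passed with array weights (adjusted p = 0.0325).

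BBC3 encodes PUMA, a protein of the BCL2 family that triggers apoptosis. BBC3 had log2 signals of 8.25, 8.37 and 8.39 with FECH siRNA, 8.22, 8.35 and 8.42 with control siRNA, 8.39, 8.33 and 8.30 with 5-ALA only, and 8.39, 8.37 and 8.46 without treatment. The groups overlapped in every comparison. FECH siRNA and control siRNA differed by 0.01, with a 95% interval of -0.13 to 0.15.

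DDB2 encodes a subunit of the complex that recognises ultraviolet damage in DNA, and it is the gene with the full p53 site shown above. Its log2 signal was 9.19, 9.33 and 9.41 with FECH siRNA, 8.92, 8.92 and 9.00 with control siRNA, 8.88, 8.69 and 8.96 with 5-ALA only, and 8.87, 8.85 and 8.74 without treatment. The FECH siRNA arrays lay above all 9 others. DDB2 was 1.29-fold higher than with control siRNA (log2 difference 0.36, SE 0.08, limma adjusted p = 0.0025), and the other 3 groups did not differ from each other past the test.

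ZMAT3 encodes a zinc finger protein that binds RNA. ZMAT3 had log2 signals of 7.51, 7.46 and 7.45 with FECH siRNA, 7.77, 7.84 and 7.93 with control siRNA, 7.58, 7.76 and 7.85 with 5-ALA only, and 7.86, 7.65 and 8.02 without treatment. The FECH siRNA arrays were the lowest of the 12, and close to the filter level of 7.29. The fall against control siRNA was 1.29-fold (log2 difference -0.37, SE 0.09, limma adjusted p = 0.0057).

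SESN1, a sestrin that restrains growth signalling through mTORC1, had log2 signals of 6.64, 6.69 and 6.79 with FECH siRNA, 6.96, 6.88 and 6.80 with control siRNA, 6.78, 6.77 and 6.96 with 5-ALA only, and 6.77, 6.82 and 6.72 without treatment. No array was above the filter, so SESN1 cannot be told from the dim probe sets and was not tested with the others. With no filter, FECH siRNA and control siRNA differed by -0.17 and did not pass (limma adjusted p = 0.093).

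**Figure D2:**
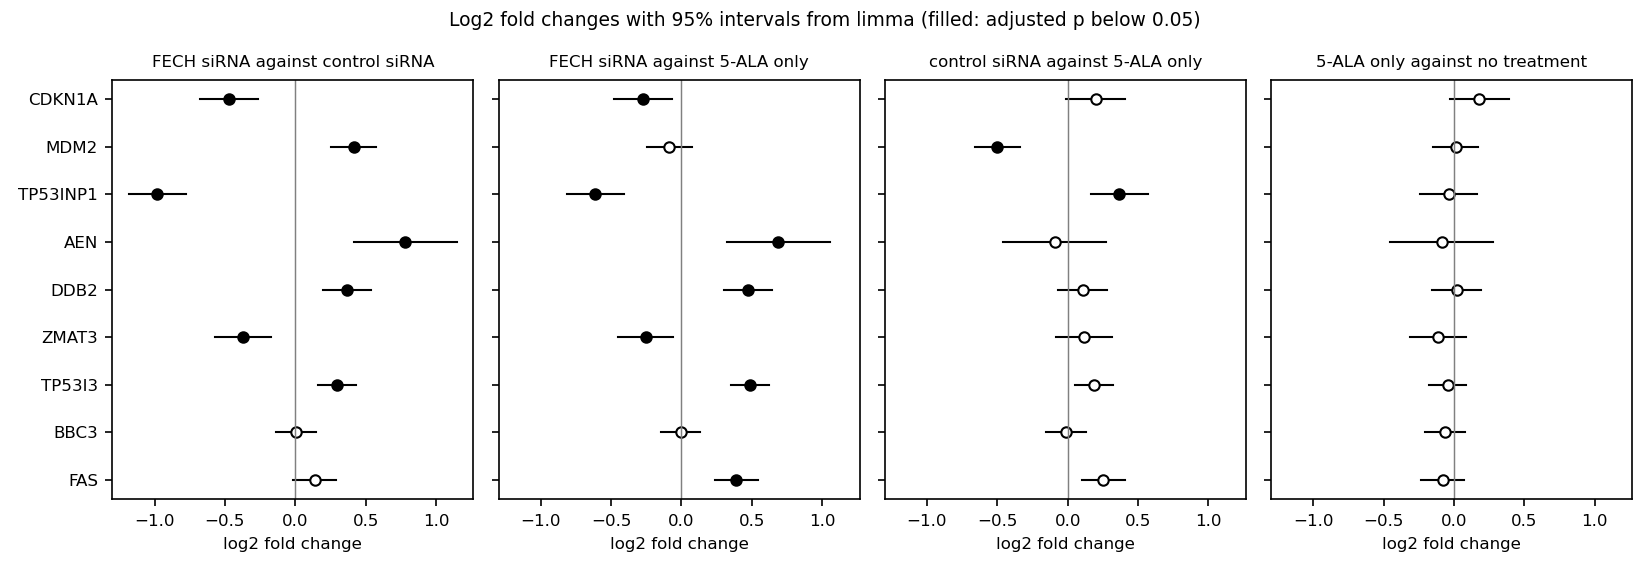
Log2 fold changes (horizontal axes) of the 9 tested p53 target genes (rows) in 4 comparisons, with 95% intervals from limma; filled points passed at an adjusted p below 0.05. TP53INP1 moved furthest, by -0.98 against control siRNA, MDM2 passed in both comparisons with control siRNA and not between FECH siRNA and 5-ALA only, and no member passed for 5-ALA against no treatment.

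Set against 5-ALA only, the FECH siRNA group again had members moved both ways. These groups differ in the siRNA and in any procedure used to deliver it, which cannot be told apart here. AEN (1.61-fold), DDB2 (1.39-fold), TP53I3 (1.40-fold) and FAS (1.31-fold) were higher and passed the limma test, and TP53INP1 (1.53-fold), CDKN1A (1.21-fold) and ZMAT3 (1.19-fold) were lower and passed. These are 7 of 9, where 37% of all tested genes passed (19.5% rose and 17.5% fell), and this comparison shares the FECH siRNA arrays with the one above. The limma adjusted p was 0.0057 for AEN, 4.0e-04 for DDB2, 4.1e-05 for TP53I3 and 6.7e-04 for FAS. The calls of CDKN1A (adjusted p = 0.040) and ZMAT3 (0.043) were close to the threshold and did not pass with no filter (0.0536 and 0.0573). The groups of all 7 did not overlap, as was so for 50% of all tested genes. CDKN1A did not pass without any 1 of the 6 arrays (adjusted p = 0.063 to 0.12), and ZMAT3 did not pass without any 1 of 5 of them (0.070 to 0.16), the exception being 5-ALA only replicate 1. Both passed in a fit of only the 2 groups compared. The other fits share 1 estimate of the spread over the 4 groups. For CDKN1A the SD was 0.23 without treatment, 0.04 with FECH siRNA and 0.06 with 5-ALA only.

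Against no treatment, 6 of 9 members passed with FECH siRNA, where 37.3% of all tested genes did (21% rose and 16.3% fell), and their groups did not overlap, as in 47.9% of all tested genes. AEN (1.52-fold), DDB2 (1.40-fold), TP53I3 (1.36-fold) and FAS (1.24-fold) rose, and TP53INP1 (1.57-fold lower) and ZMAT3 (1.29-fold lower) fell. CDKN1A had a log2 difference of -0.09 (limma adjusted p = 0.50). Without untreated replicate 3 it was -0.22 and passed (limma adjusted p = 0.031). In that setting 7 members passed, where 4342 of all 12151 genes did. AEN (adjusted p = 0.013) did not pass without untreated replicate 1 (0.058) or FECH siRNA replicate 3 (0.0506).

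Control siRNA was set against 5-ALA only. The groups differ in an siRNA that has no intended target and in any procedure used to deliver it, which cannot be told apart here. MDM2 fell, 1.42-fold lower (log2 difference -0.50, SE 0.07, limma adjusted p = 0.0015), and TP53INP1 rose 1.29-fold (0.37, SE 0.09, adjusted p = 0.036). These were 2 of 9 members past the test, where 6.2% of all tested genes passed (2.52% rose and 3.68% fell) and 27.1% had groups that did not overlap, as did 5 of the 9 members. CDKN1A was higher on all 3 control siRNA arrays by 0.20 and did not pass (limma adjusted p = 0.26). TP53I3 and FAS were also higher on all 3 control siRNA arrays than on all 3 arrays with 5-ALA only, by 0.19 and 0.25, and did not pass (limma adjusted p = 0.0962 and 0.0535). With a block for the runs of sample numbers both passed (0.0449 and 0.0265), which makes 4 of 9 members, where 1652 of all 12151 genes passed. FAS also passed with array weights (0.0411). The MDM2 difference was -0.54, -0.46 and -0.50 within the 3 runs. TP53INP1 differed by 0.63, 0.35 and 0.12 within the runs, and its call ended without control siRNA replicate 1 (0.12) or 2 (0.12) or 5-ALA only replicate 1 (0.12), 2 (0.070) or 3 (0.082), after cyclic loess (0.058) and after median centring (0.092).

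Control siRNA and no treatment differ in 5-ALA, in the siRNA and in any procedure used to deliver it, which cannot be told apart here. Against no treatment, control siRNA again had MDM2 lower, 1.40-fold (limma adjusted p = 0.0020), and CDKN1A was 1.30-fold higher (adjusted p = 0.040). These 2 of 9 compare with 4.62% of all tested genes (2.39% rose and 2.22% fell), and the control siRNA arrays are those of the paragraph above. The CDKN1A call rested on single arrays: it did not pass without untreated replicate 3 (0.086) or without control siRNA replicate 1 (0.0995), 2 (0.0625) or 3 (0.144). It also did not pass with no filter (0.0539), after median centring (0.0756), with array weights (0.0554) or in a fit of only the 2 groups (0.16). TP53INP1 was 1.26-fold higher and did not pass (adjusted p = 0.064). It passed with the runs as a block (0.023) and without control siRNA replicate 3 (0.026). AEN, DDB2, ZMAT3, TP53I3, BBC3 and FAS had log2 differences between -0.18 and 0.17 and did not pass. CDKN1A, TP53INP1, DDB2, TP53I3 and FAS were higher on all 3 control siRNA arrays than on all 3 untreated arrays, and MDM2 was lower, while groups did not overlap in 21.1% of all tested genes.

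The last comparison set 5-ALA only against no treatment, and so addresses 5-ALA in cells without siRNA. No member passed the limma test, where 0.0165% of all tested genes did, and 0 of 9 had an unadjusted p below 0.05, against 2.82% of all tested genes. CDKN1A was the only one whose groups did not overlap, as was so for 6.37% of all tested genes. The log2 differences ran from -0.11 (ZMAT3) to 0.18 (CDKN1A), and the highest upper bound of their 95% intervals apart from CDKN1A's (0.39) was AEN's (0.28). CDKN1A's difference was 0.05 without untreated replicate 3. With the runs as a block 0 of 9 passed as well. MDM2, at 10.25 ± 0.12 with 5-ALA only and 10.24 ± 0.06 without treatment (SD, n = 3 each), had a 95% interval of -0.15 to 0.17.

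Further genes of the pathway came from 3 lists. Of 46 further p53 targets, 45 had a probe set and 38 were tested. With FECH siRNA 8 of them rose and 13 fell against control siRNA, with a median log2 difference of -0.01 beside 0.00 for all tested genes, of which 20.4% rose and 17.8% fell. With the runs as a block 13 rose and 15 fell, where 3059 and 2624 of all 12151 genes did. APAF1, the scaffold of the apoptosome, was at 8.28 ± 0.05 with FECH siRNA and 7.52 ± 0.03 with control siRNA (SD, n = 3 each), 0.76 higher (limma adjusted p = 2.0e-05). GADD45A, a growth arrest protein of the DNA damage response, rose by 1.02 (adjusted p = 0.0117, and 0.0555 without control siRNA replicate 2). FUCA1, a lysosomal fucosidase, fell by 0.66 (6.1e-05), and FBXO22, an F-box protein of ubiquitin ligases, fell by 0.58 (1.8e-05).

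Against 5-ALA only, 8 further targets rose and 9 fell with FECH siRNA, where 19.5% and 17.5% of all tested genes did. Against no treatment 9 rose and 8 fell, where 21% and 16.3% of all tested genes did. Against 5-ALA only APAF1 rose by 0.60 (limma adjusted p = 1.8e-04), FBXO22 fell by 0.59 (1.7e-05) and CYFIP2, a partner of the fragile X protein FMRP, fell by 0.51 (0.0020). Against no treatment FBXO22 fell by 0.57 (2.3e-05) and GADD45A rose by 0.93 (0.0205), or by 0.45 without untreated replicate 3 (0.0169). GADD45A did not pass without FECH siRNA replicate 1 (0.0554) or 3 (0.0514), with a trended and robust variance (0.0526) or in a fit of only the 2 groups (0.0635). DRAM1, a lysosomal membrane protein that acts in autophagy, was at 8.25 ± 0.07 with FECH siRNA, 8.58 ± 0.14 with control siRNA, 9.27 ± 0.10 with 5-ALA only and 9.22 ± 0.10 without treatment (SD, n = 3 each). It was lower in both siRNA groups than with 5-ALA only, by -1.02 with FECH siRNA (limma adjusted p = 7.9e-07) and by -0.70 with control siRNA (3.8e-04), and lower with FECH siRNA than with control siRNA by -0.32 (0.0071). SESN2, the stress-responsive sestrin, rose against no treatment by 1.43 (adjusted p = 0.0031), or by 0.86 without untreated replicate 3 (6.6e-06), whose value of 7.99 lay far under the 9.61 and 9.76 of the other untreated arrays. Against control siRNA SESN2 was 0.83 higher and did not pass (limma adjusted p = 0.0552), and it passed with the runs as a block (0.0458). Against 5-ALA only it was 0.85 higher, with a limma adjusted p of 0.0529, or 0.0433 with the block. The fit shares 1 estimate of the spread over the 4 groups. For SESN2 the SD was 0.98 without treatment, 0.09 with FECH siRNA, 0.08 with control siRNA and 0.12 with 5-ALA only. With control siRNA against 5-ALA only, DRAM1 fell, and IGFBP3 (0.44 higher), FUCA1 (0.41) and TRAF4 (0.29) rose. Of all tested genes, 2.52% rose and 3.68% fell in this comparison. The call of IGFBP3 ended without control siRNA replicate 1 (0.0655) or 2 (0.0781) or 5-ALA only replicate 1 (0.0542). That of FUCA1 ended without control siRNA replicate 1 (0.0559) or 2 (0.0567) or 5-ALA only replicate 3 (0.0708), and that of TRAF4 without control siRNA replicate 2 (0.074) or 5-ALA only replicate 2 (0.0528) or 3 (0.0674). With control siRNA against no treatment 1 rose and 2 fell, where 2.39% and 2.22% of all tested genes did. With the runs as a block 4 rose and 3 fell, where 708 and 588 of all 12151 genes did. The further targets called without the block were FUCA1 (0.46 higher, limma adjusted p = 0.0101, or 0.0755 in a fit of only the 2 groups), DRAM1 (-0.64, 7.4e-04) and POLH, the polymerase that copies past ultraviolet lesions (-0.36, 0.0271). POLH did not pass in a fit of only the 2 groups (0.129) or without any 1 of 5 arrays (0.0537 to 0.102), the exception being untreated replicate 1. With 5-ALA only against no treatment 0 of the 38 passed limma, and 0 passed with the runs as a block, where 2 and 3 had an unadjusted p below 0.05. Without the block 2.82% of all tested genes had an unadjusted p below 0.05.

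Of 21 genes of the p53 family, its regulators and cofactors, 17 were tested. Against control siRNA, 2 rose and 2 fell with FECH siRNA, where 20.4% and 17.8% of all tested genes did. SIRT1, a deacetylase of p53 among other proteins, was at 8.75 ± 0.08 with FECH siRNA and 9.50 ± 0.04 with control siRNA (SD, n = 3 each), a fall of 1.68-fold (log2 difference -0.75, limma adjusted p = 3.9e-05). PPP1R13L, which encodes the p53 inhibitor iASPP, fell by 0.54 (2.6e-04). Both also fell against 5-ALA only and against no treatment. The 2 that rose were the acetyltransferase KAT5, by 0.31 (adjusted p = 0.015), and USP7, a deubiquitinase of MDM2 and p53, by 0.23 (0.027). Neither passed without control siRNA replicate 2 (0.072 and 0.13) or FECH siRNA replicate 3 (0.0593 and 0.0865), and USP7 did not pass without FECH siRNA replicate 2 (0.0515). MDM4, the partner of MDM2, did not pass (0.21 higher, adjusted p = 0.084), and is named here after its values were seen. With the runs as a block 2 of the 17 rose and 4 fell, where 3059 and 2624 of all 12151 genes did. Against 5-ALA only 1 rose and 3 fell, where 19.5% and 17.5% of all tested genes did. With the block 1 rose and 5 fell, where 2961 and 2584 of 12151 genes did. Against no treatment 3 rose and 2 fell, where 21% and 16.3% of all tested genes did. With the block 3 rose and 4 fell, where 3195 and 2430 of 12151 genes did. PPP1R13B, which encodes the p53 cofactor ASPP1, rose by 0.37 against 5-ALA only (limma adjusted p = 0.0117, or 0.0601 without 5-ALA only replicate 1) and by 0.45 against no treatment (0.0030). KAT5 rose by 0.34 against no treatment (0.0085). HIPK2, a kinase of p53, fell by 0.31 against 5-ALA only (0.0392), a call that ended with no filter (0.0522) and without FECH siRNA replicate 1 (0.174) or 5-ALA only replicate 1 (0.0634), 2 (0.116) or 3 (0.0739). With control siRNA limma called 0 of 17 against 5-ALA only and 0 against no treatment, where 6.2% and 4.62% of all tested genes passed. Of the 17, 2 and 3 had an unadjusted p below 0.05, counts not set against a share of all genes. With the block 1 fell against 5-ALA only, where 915 of all 12151 genes did. With 5-ALA only against no treatment limma called 0 of 17, and 1 had an unadjusted p below 0.05, beside 2.82% of all tested genes.

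p21 lowers many genes of DNA replication and mitosis through the RB proteins and the DREAM repressor complex. All 16 listed genes of this kind were tested, and with FECH siRNA 10 rose and 1 fell against control siRNA, with a median log2 difference of 0.20 beside 0.00 for all tested genes, of which 20.4% rose and 17.8% fell. MYBL2, a transcription factor of the cell cycle, was at 10.90 ± 0.11 with FECH siRNA and 10.42 ± 0.02 with control siRNA (SD, n = 3 each), 0.48 higher (limma adjusted p = 3.7e-04). FOXM1, which drives mitotic genes, rose by 0.36 (8.4e-04). CDC25C, a phosphatase that activates CDK1, fell by 0.32 (0.0093). The count of 10 was 4 without FECH siRNA replicate 1 and 5 without control siRNA replicate 2. Of all 12151 genes, 2139 and 1926 rose in these settings. Against 5-ALA only 11 rose and 0 fell with FECH siRNA, where 19.5% and 17.5% of all tested genes did. The count was 7 without FECH siRNA replicate 1 or without 5-ALA only replicate 1 or 2. Of all 12151 genes, 2081, 1869 and 2026 rose in these settings. MYBL2 was 0.68 higher (limma adjusted p = 2.1e-05), CDC25A, a phosphatase that starts DNA replication, 0.57 (0.0022) and FOXM1 0.45 (1.6e-04). Against no treatment, where CDKN1A had a log2 difference of -0.09 and did not pass, 9 rose and 0 fell, beside 21% and 16.3% of all tested genes. The count of 9 was 4 without FECH siRNA replicate 1 and 5 without FECH siRNA replicate 2. Of all 12151 genes, 2229 and 1991 rose in these settings. Against no treatment MYBL2 was 0.67 higher (limma adjusted p = 2.2e-05), FOXM1 0.40 (4.5e-04) and CDC25A 0.36 (0.0336, a call that ended without any 1 of 5 arrays, 0.0532 to 0.143, the exception being untreated replicate 3). With control siRNA against 5-ALA only, where CDKN1A was 0.20 higher and did not pass, 1 of the 16 rose, beside 2.52% of all tested genes. With the runs as a block 2 rose and 1 fell, where 737 and 915 of all 12151 genes did. The 1 called without the block was CDC25A (0.49 higher, limma adjusted p = 0.0336), and its call ended after cyclic loess (0.0503), after median centring (0.0543) and without any 1 of 5 arrays (0.0522 to 0.123), the exception being 5-ALA only replicate 3. Against no treatment limma called 0 with control siRNA, where 4.62% of all tested genes passed. With the block 1 fell, where 588 of all 12151 genes did. Of the 16, 5 had an unadjusted p below 0.05 there, a count not set against a share of all genes. With 5-ALA only against no treatment limma called 0, and 0 had an unadjusted p below 0.05, beside 2.82% of all tested genes. Whether the CDKN1A signal bears on these 16 genes was not tested.

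**Figure D3:**
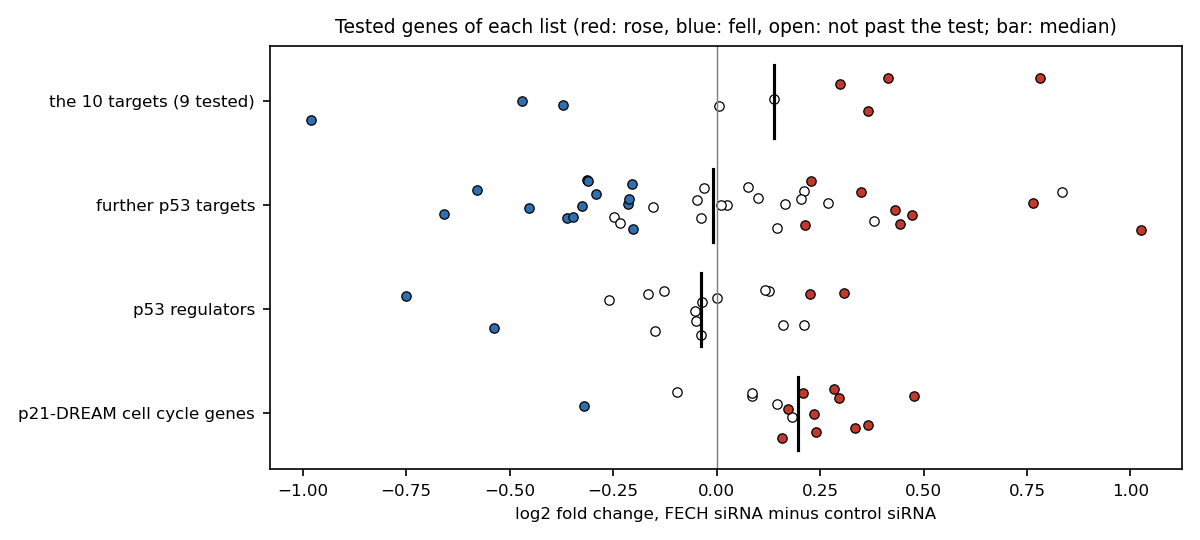
Log2 fold change of FECH siRNA over control siRNA (horizontal axis) for the tested genes of each list (rows, with random vertical scatter); red rose, blue fell, open points did not pass the limma test, and the black bar is the median. The p53 targets spread to both sides of 0, while 10 of 16 cell cycle genes rose and 1 fell. Of all tested genes, 20.4% rose and 17.8% fell. The count of 10 went as low as 4 when a single array was left out.

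By the root mean square difference of log2 signals over the 12 arrays, each gene centred on its own mean, the genes nearest to CDKN1A were TK2 (0.08), AAGAB (0.09) and CENPQ (0.09), where CDKN1A itself varied by 0.21. Nearest to MDM2 were PPM1A (0.06) and ARHGAP5 (0.07), where MDM2 varied by 0.22. Like MDM2, PPM1A was lowest with control siRNA, at 8.58 with FECH siRNA, 8.22 with control siRNA, 8.69 with 5-ALA only and 8.67 without treatment. Nearest to TP53INP1 were MGAT4A (0.08), CTSF (0.08) and SLC2A12 (0.08), where TP53INP1 varied by 0.37. These genes were picked from 12151 for this likeness, so it is a description and no test.

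**Figure D4:**
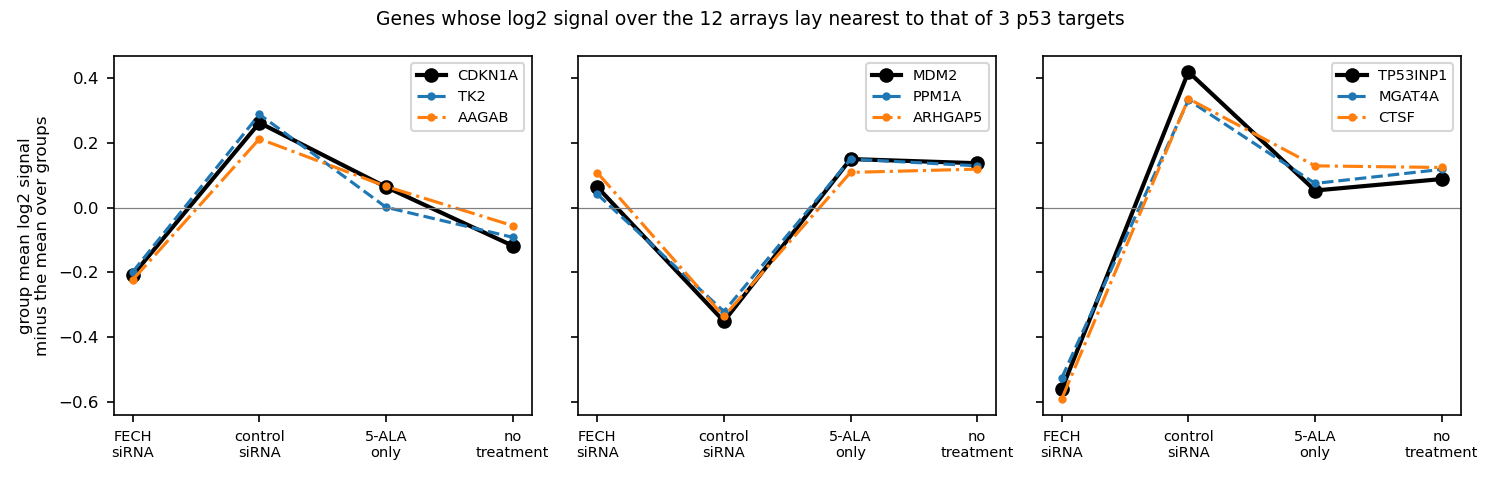
Group mean log2 signal minus its mean over the 4 groups (vertical axis) for CDKN1A, MDM2 and TP53INP1 (black) and the 2 genes nearest to each (coloured), by group (horizontal axis). The control siRNA group is the peak of the CDKN1A and TP53INP1 panels and the low point of the MDM2 panel.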

How the data were processed

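Signals per transcript cluster were deposited as intensity on a linear scale and, per the submitters' processing notes, made with RMA in oligo. Which version or genome build was used is not given in the sources used here. A further 12 per-sample columns of the deposited workbook, whose names do not show which sample they hold, were not used. Log2 of these deposited values was taken with a pseudocount of 0. Of 28869 probe sets, 6741 with no symbol and 2191 with several were left out, and 19309 symbols were updated by Entrez number through RefSeq. Genes above the 50th percentile on 3 arrays were kept, with the probe set of highest mean for each. limma 3.58.1 in R 4.3.3 fitted 1 mean per group over all 12 arrays, with default eBayes, two-sided p-values and Benjamini-Hochberg adjustment within each of 6 comparisons. The fit was tested on simulated data. The number of arrays limits the precision.

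The members and lists were chosen with earlier results of these data known. The text names all members, FECH, up to 4 genes of each list with the largest change past the test in a comparison, and the 3 nearest genes of CDKN1A, MDM2 and TP53INP1, except a few genes that are not reported here.

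The sample numbers in the titles form 3 runs, each with 1 sample of every group. After group means were removed, arrays of different groups correlated at 0.21 to 0.54 within a run and at 0.15 or below between runs, so the runs were taken to pair the samples. Values from a fit with the runs as a block stand next to a result if the block altered its call or shifted a count by over 1.5 times. Also tried were no filter, a 70th percentile filter, trended and robust variance, only the 2 groups compared, cyclic loess, median centring, array weights, the mean of a symbol's probe sets, and leaving out each array. For FECH and the lists these were chosen after seeing the data.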

Additional observations from a re-analysis of the deposited data

How the results depend on the processing

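The number of members past the test kept within 1.5 times of its value in most settings. For FECH siRNA against 5-ALA only (7) it was 4, and against no treatment (6) it was 3, with the 70th percentile filter, which leaves 5 members to test. Of all 7829 genes left by this filter, 3586 and 3603 passed. For control siRNA against 5-ALA only (2) it was 1 after cyclic loess, 1 after median centring, 4 with the replicate block (the runs of sample numbers), and 1 to 2 without single arrays. For control siRNA against no treatment (2) it was 1 with no filter, 1 after median centring, 1 with array weights, 1 in a fit of only the 2 groups, and 1 to 2 without single arrays. No called difference of a member changed sign under any alternative run: 755 repeated values kept their side of the threshold, 30 lost the call and 7 gained it. The block of runs changed no other member call than those given with the results. Over all genes, control siRNA against 5-ALA only had 753 calls, 1652 with the block and 350 to 493 without single arrays. Control siRNA against no treatment had 561, 1296 with the block, 210 in a fit of only the 2 groups, and 270 to 362 without a control siRNA array. 5-ALA against no treatment had 2, and 1 in a fit of only the 2 groups. Median centring turned the split of control siRNA against 5-ALA only from 306 higher and 447 lower into 170 higher and 537 lower, and that of control siRNA against no treatment from 291 and 270 into 156 and 269. Of the regulators, the number that fell with FECH siRNA against 5-ALA only (3) was 5 after cyclic loess, 6 with array weights and 5 in a fit of only the 2 groups, and against no treatment (2) it was 4 without untreated replicate 2. Of all 12151 genes, 2311, 2531, 2211 and 1795 fell in these settings, in this order. Of the further targets, the number that fell with control siRNA against 5-ALA only (1) was 2 with array weights and 3 in a fit of only the 2 groups. Of all 12151 genes, 655 and 436 fell in these settings. The number of further targets that fell with FECH siRNA against no treatment (8) was 5 with the 70th percentile filter, where 1607 of 7829 genes fell. The cause of these shifts was not tested.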
